A study of Mus musculus with 2 samples.

Results

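The genes described here are 51 mouse genes of the transforming growth factor-beta (TGF-beta) and bone morphogenetic protein (BMP) pathway, among 37007 genes on the array, and they are called the members below. The rule that chose them uses gene names and no values, although the pathway was picked with earlier results of these data known. The names taken were those of TGF-beta ligands (Tgfb1 to Tgfb3), TGF-beta receptors (Tgfbr), Tgfbi, BMPs (Bmp followed by a digit), BMP receptors (Bmpr), activin receptors (Acvr), inhibin subunits (Inha, Inhb), Smad proteins, latent TGF-beta binding proteins (Ltbp) and inhibitors of DNA binding (Id1 to Id4). The array holds 98 probes with these names, and 28 members have several probes and 23 have 1. The name rule also takes Bmp1, Bmp2k and Tgfbrap1, which are an enzyme, a kinase and an adaptor.

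RNA came from the submandibular gland, a major salivary gland, of female mice labelled C57BL/6, a strain that the methods give as C57BL/6N. The young group was 9 weeks old and the aged group 24 months old, with 1 array for each age, and the labels name no treatment and no altered gene in either group. Epithelial cells had been pulled from digested glands with magnetic beads against EpCAM, an adhesion molecule of epithelial cells, so that cells of other kinds can remain in both samples. The methods give a different source for the young and the aged mice, so age and source cannot be told apart. Both arrays were on the same slide. Since each age had 1 array, differences could not be checked against replicates, and neither tests nor p-values are given.

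TGF-beta and BMP ligands are secreted dimers that bring together type II and type I receptor kinases at the cell surface. The active type I receptor phosphorylates receptor-regulated Smads, which enter the nucleus with the common Smad, Smad4, and switch target genes on or off, while the inhibitory Smads act as feedback. TGF-beta is stored in the matrix in a latent form bound to Ltbp proteins, and the pathway is known for matrix production and growth arrest in many tissues and for the branching of the salivary gland before birth.

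The signal of a probe is the intensity of its spot after the scanner software removed the background. Levels are log2 signals relative to the 75th percentile of the array, which was 256 (young) and 198 (aged). Differences are aged minus young on the log2 scale, with the error that the software's error model gives to the spots behind ±, which says nothing of the spread between mice. A probe was kept when the software marked its spot as well above background on either or both arrays, and the brightest kept probe stood for its gene. The share of probes well above background was 53.4% for young and 48.5% for aged. Ranges over the scalings cover 7 ways of setting the arrays level. The median difference of all genes, 0.09, moved with them from -0.16, with the arrays set level on spike-in controls, to 0.27, with each array centred on its median.

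Most members were present in both samples at levels that lay close together, and the few larger differences were decreases. Of the 51 members, 40 were kept, 38 of them with signal well above background on both arrays and 2, Bmp3 and Smad6, on the young array only. The other 11 were well above background on neither array, namely Bmp2, Bmp5, Bmp6, Bmp8b, Bmp10, Bmp15, Inhba, Inhbc, Acvr1c, Bmpr1b and Smad9. By a threshold of 2-fold, 3 members were lower on the aged array (Tgfbi, Id4 and Bmp2k) and 0 were higher. Over the 21346 genes kept on the whole array, 5.14% were lower and 2.53% higher by this threshold, so a count of 3 among 40 is near the background. The differences of the 38 members on both arrays ran from -1.52 to 0.62, and 30 of them (78.9%) were under 1.5-fold, compared with 82.8% of all genes measured on both arrays. Their median was -0.17, and 26 were negative (68.4%), compared with 40.1% of all genes. The median of the members lay 0.24 to 0.27 below that of all genes under the 7 scalings. The sign of the difference was the same under all 7 for 25 members, 19 of them lower and 6 higher, and it changed for 13. For 13 members the difference was more than 2 times its error, 9 of them lower and 4 higher. Leaving out Bmp1, Bmp2k and Tgfbrap1, the median of the 35 others measured on both arrays was also -0.17.

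**Figure D1:**
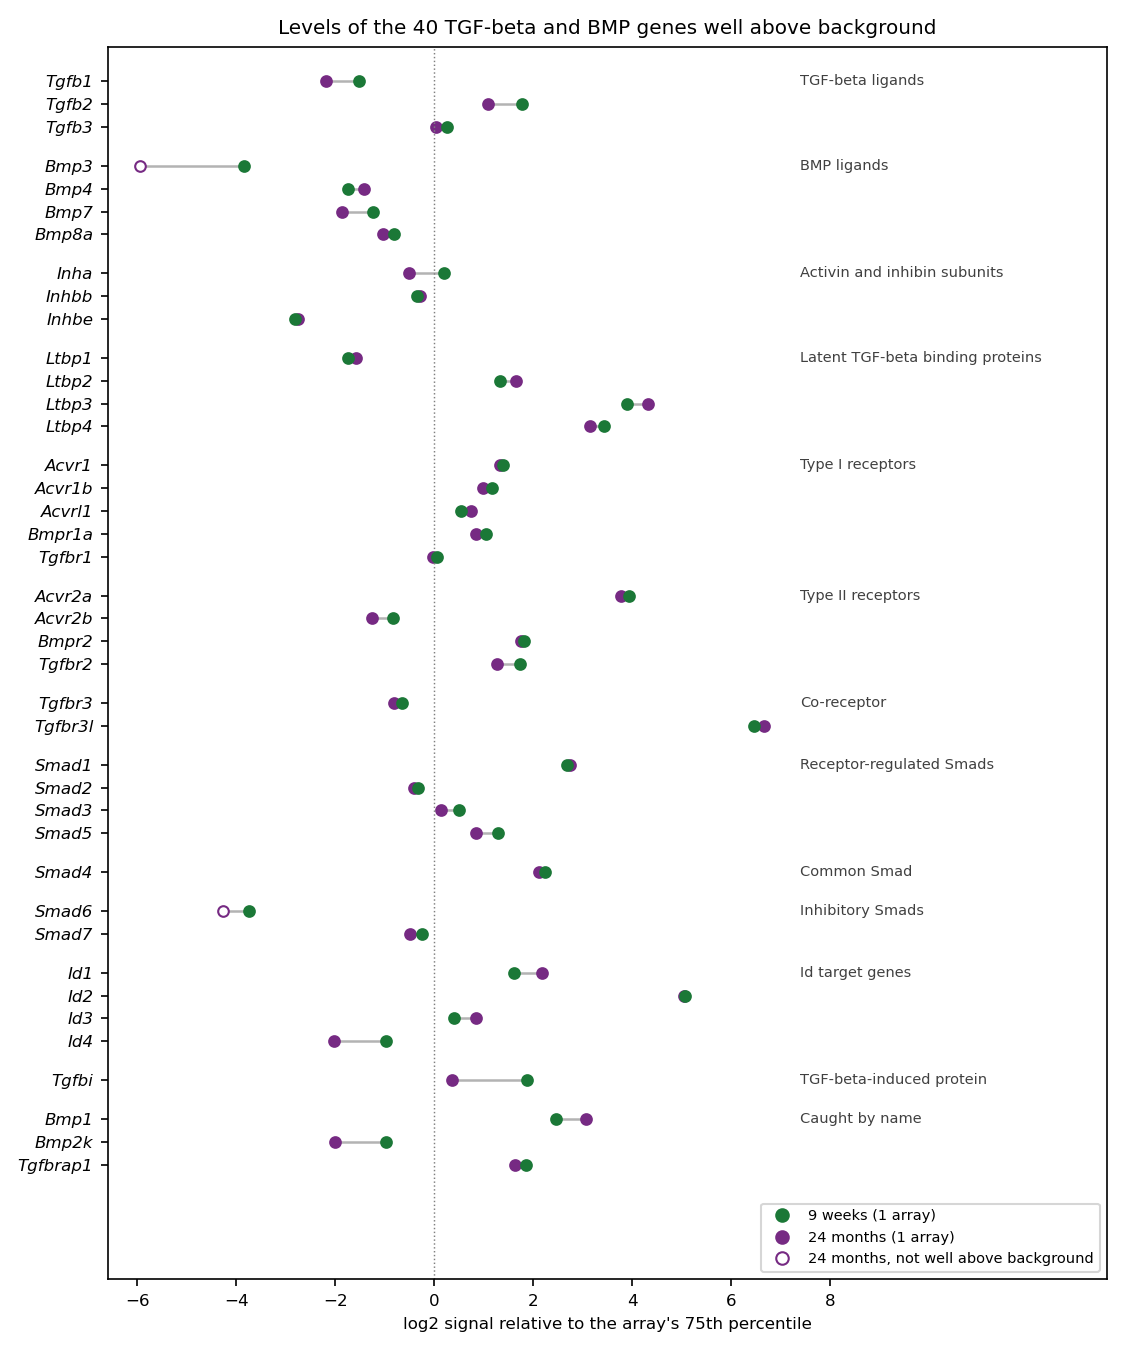
Level of each of the 40 kept members on the 9-week and the 24-month array, as log2 signal relative to the 75th percentile of the array, grouped by role. Each point is 1 array, open points are not well above background, and in most rows the points of both ages lie close together, with wider gaps for Tgfbi, Id4 and Bmp2k. Levels of different genes come from different probes and are not comparable.

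Tgfbi, the TGF-beta-induced protein, is secreted into the matrix and binds collagens and integrins. Its probe had a signal of 939 ± 94.0 at 9 weeks and 254 ± 25.5 at 24 months. Relative to the 75th percentile the level went from 1.87 to 0.36, a difference of -1.52 ± 0.20, or 2.86-fold lower. This was the lowest difference of any member measured on both arrays, and 1.25% of all genes measured on both arrays lay below it. It was at least 2-fold lower under all 7 scalings, between -1.77 and -1.34. The array holds 1 Tgfbi probe, which the files place at chr13:56740460-56740519 on the forward strand of NCBI37 (mm9). Its first 30 of 60 bases are printed to show what was measured.
Tgfbi probe: aaatgtgaatcaagcagtccggcattctgg

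The Id genes encode small proteins that bind basic helix-loop-helix transcription factors and keep them off DNA, and they are direct targets of BMP signals in many cells. The 4 Id genes did not move together. Id4 had a signal of 130 ± 13.3 at 9 weeks and 48.5 ± 5.66 at 24 months, a difference of -1.05 ± 0.22, or 2.07-fold lower. Id1 went the other way, from 778 ± 77.9 to 890 ± 89.0, with a difference of 0.57 ± 0.20. Id3 also had a positive difference, 0.46 ± 0.20, from a signal of 336 to 357. Id2 was at 8561 and 6579, and its difference was -0.01 ± 0.20, with a second probe at -0.07. For Id1 and Id3 the sign was positive under all 7 scalings, from 0.31 to 0.74 and from 0.20 to 0.63, and for Id2 it changed. The Id4 difference was under 2-fold with median centring (-0.87), quantile normalization (-0.97) and the normexp background correction (-0.56). The Id4 probe lies at chr13:48359180-48359239 on the forward strand of NCBI37 (mm9), and its first 30 bases are given for the same reason.
Id4 probe: catgaggtgttcaatcacaaaataaaccag

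Since Tgfbi and the Id genes are targets of Smads, the promoters of Tgfbi, Id2, Id3 and Id4 are shown, as windows of 300 bases that start before the gene and end shortly inside it, from RefSeq on GRCm38.p6. Capitals mark CAGAC on either strand (GTCTG when read on the other), a motif that Smad proteins bind, and GGCGCC, a palindrome of the GC-rich kind also bound by Smads. The motifs do not overlap each other. The promoters lie at chr13:56609336-56609635 (forward strand) for Tgfbi, chr12:25096043-25096342 (reverse strand) for Id2, chr4:136143572-136143871 (forward strand) for Id3 and chr13:48260866-48261165 (forward strand) for Id4, and each is printed in the direction of its gene.
Tgfbi promoter: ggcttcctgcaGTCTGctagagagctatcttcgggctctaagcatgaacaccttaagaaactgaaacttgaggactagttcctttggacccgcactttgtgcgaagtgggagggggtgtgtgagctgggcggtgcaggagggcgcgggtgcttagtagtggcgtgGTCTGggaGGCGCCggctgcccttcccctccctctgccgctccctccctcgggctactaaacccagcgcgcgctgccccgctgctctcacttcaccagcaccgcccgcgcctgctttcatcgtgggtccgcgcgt
Id2 promoter: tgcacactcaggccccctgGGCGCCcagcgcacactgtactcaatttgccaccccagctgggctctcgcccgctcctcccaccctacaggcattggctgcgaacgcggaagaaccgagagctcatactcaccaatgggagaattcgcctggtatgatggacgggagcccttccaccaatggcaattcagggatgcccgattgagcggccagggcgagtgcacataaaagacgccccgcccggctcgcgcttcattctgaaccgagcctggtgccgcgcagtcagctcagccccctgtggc
Id3 promoter: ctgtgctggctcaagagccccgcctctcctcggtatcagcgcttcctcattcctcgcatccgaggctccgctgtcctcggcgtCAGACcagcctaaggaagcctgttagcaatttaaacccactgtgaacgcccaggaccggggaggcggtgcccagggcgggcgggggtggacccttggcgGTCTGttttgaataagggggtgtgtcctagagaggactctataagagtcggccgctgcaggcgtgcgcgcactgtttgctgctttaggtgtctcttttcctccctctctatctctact
Id4 promoter: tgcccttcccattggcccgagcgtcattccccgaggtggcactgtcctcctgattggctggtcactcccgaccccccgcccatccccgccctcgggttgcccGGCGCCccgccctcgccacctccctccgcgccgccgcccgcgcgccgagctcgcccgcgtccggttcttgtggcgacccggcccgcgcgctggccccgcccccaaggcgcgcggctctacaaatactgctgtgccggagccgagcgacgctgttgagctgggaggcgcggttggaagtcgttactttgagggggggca

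The Tgfbi window held 2 matches of CAGAC and 1 of GGCGCC. The Id3 window held 2 of CAGAC and 0 of GGCGCC, and the windows of Id2 and Id4 each held 0 of CAGAC and 1 of GGCGCC. Id4, which was lower, and Id2, whose level hardly differed, thus had the same counts of both motifs. Id1, the Id gene with the highest difference, did not match the promoter table and is in neither the display nor the counts. Of the members, 40 of 51 matched, with 50 windows. CAGAC lay in 46% of these windows, compared with 49.6% of all 32851 windows of the same length, and GGCGCC in 28%, compared with 11.9%. The windows of the members had a median GC content of 63.7%, and all windows 52.7%. A match is a stretch of letters and not a measured binding site.

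All 3 TGF-beta ligands had lower levels in the aged sample, each by under 2-fold. Tgfb1, the form most studied in immune regulation and scarring, had a signal of 89.2 ± 9.69 at 9 weeks and 43.5 ± 5.78 at 24 months, a difference of -0.66 ± 0.25. Tgfb2 was at 872 ± 87.2 and 421 ± 42.2, a difference of -0.68 ± 0.20. Its second probe, also well above background on both arrays, gave -0.81. Tgfb3, the third ligand, was at 307 ± 30.8 and 203 ± 20.5, a difference of -0.23 ± 0.21. The sign was negative for all 3 under the 7 scalings, with ranges of -0.92 to -0.15 for Tgfb1, -0.93 to -0.50 for Tgfb2 and -0.48 to -0.05 for Tgfb3.

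Of the 10 BMP ligands, 4 were kept. Bmp4, which with its relatives patterns many epithelial organs, was at 76.2 ± 8.38 in young and 73.5 ± 8.16 in aged cells, a difference of 0.32 ± 0.23. Bmp7, a ligand of the same family first known from kidney and bone, was at 109 ± 11.3 and 54.6 ± 6.31, a difference of -0.63 ± 0.22 with a range of -0.88 to -0.30 over the scalings. Bmp8a was at 146 ± 14.8 and 96.9 ± 10.1, a difference of -0.22 ± 0.21. The BMP ligands thus went both ways, with Bmp7 beyond 2 errors and Bmp4 and Bmp8a within them. Bmp3, which antagonizes other BMPs, had a signal of 17.8 on the young array and was not well above background on the aged array, and no fold could be given.

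The inhibin and activin subunits form dimers that act on the pituitary and on many other tissues. Inha, the alpha subunit that turns an activin into an inhibin, was at 292 ± 29.4 and 139 ± 14.2, a difference of -0.70 ± 0.21 with a range of -0.96 to -0.53. Inhbb, an activin beta subunit, was at 200 ± 20.3 and 163 ± 16.6, a difference of 0.07 ± 0.21. Inhbe, another beta subunit, was at 36.2 ± 4.75 and 29.4 ± 4.28, also a difference of 0.07, with an error of 0.28. Inha was lower beyond its error while both beta subunits lay within theirs, and their sign changed with the scaling.

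The 4 latent TGF-beta binding proteins belong to the matrix, where proteins of this family can anchor latent ligands, though not every one does. Ltbp3 was at 3812 ± 381 in young and 3972 ± 397 in aged cells, a difference of 0.43 ± 0.20, and its second probe gave -0.20. Ltbp2 was at 646 and 623, a difference of 0.32 ± 0.20, and Ltbp4 at 2770 and 1752, a difference of -0.29 ± 0.20, with another probe at 0.33. Probes of Ltbp3 and of Ltbp4 thus had opposite signs, so neither gene has a settled direction. For Ltbp1 the brightest probe, with 76.4 and 66.2, gave 0.17 ± 0.22. Another Ltbp1 probe, which the files match to a different transcript, was at 31.8 on the young array and not well above background on the aged array, at least 1.72-fold lower.

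By their brightest probes, the type I and type II receptors among the members were all under 1.5-fold. Amhr2, a type II receptor that the name rule does not take, was higher and is given with the other pathway genes below. Among the type I receptors, which carry the signal to the Smads, 5 of 7 were kept and differed by -0.21 (Bmpr1a) to 0.22 (Acvrl1), with a median of -0.09. Tgfbr1, the type I receptor for TGF-beta, was at 268 and 194 with a difference of -0.09 ± 0.21. The second probe of Bmpr1a gave 0.33, against -0.21 by the brightest, and the probes of Acvr1 also differed in sign. All 4 type II receptors among the members, which bind ligand and phosphorylate the type I receptor, had negative differences with a median of -0.30. Tgfbr2, the type II receptor for TGF-beta, was at 850 ± 85.0 and 478 ± 47.9, a difference of -0.46 ± 0.20 that lay between -0.71 and -0.28 over the scalings. Acvr2b was at 143 and 83.2, a difference of -0.41 ± 0.21, and Acvr2a and Bmpr2 were at -0.18 and -0.05. The probes of Bmpr2 differed, and a second one gave -0.47. Another, well above background in aged cells only, was at 15.7 and 19.5, near the lowest signal well above background. Its difference was 0.68 ± 0.47. Tgfbr3, the co-receptor betaglycan, was at 163 and 112, a difference of -0.17 ± 0.21, and Tgfbr3l, a relative of it, at 22650 and 20109, a difference of 0.20 ± 0.20.

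The Smads, which carry the signal into the nucleus, differed little, with negative values for most. Of the Smads of the TGF-beta and activin branch, Smad3 was at 361 ± 36.2 and 218 ± 22.0, a difference of -0.36 ± 0.21, with a second probe at -0.71, and Smad2 was at 204 and 149, a difference of -0.08 ± 0.21. Of those of the BMP branch, Smad5 was at 623 ± 62.4 and 354 ± 35.5, a difference of -0.44 ± 0.20, and Smad1 at 1641 and 1334, a difference of 0.07 ± 0.20. Each branch therefore held 1 Smad with a difference near 0. Smad4, the partner of both branches, was at 1209 and 863, a difference of -0.11 ± 0.20, and its 5 probes ran from -0.76 to -0.11, all negative. Smad7, an inhibitory Smad induced by TGF-beta, was at 215 and 140, a difference of -0.25 ± 0.21. Smad6, the inhibitory Smad of the BMP branch, was at 19.2 on the young array and 10.2, not well above background, on the aged array.

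Bmp1, Bmp2k and Tgfbrap1 share parts of their names with the ligands and receptors but are neither. Bmp1, a metalloprotease that trims procollagens and releases latent TGF-beta and BMPs, was at 1402 ± 140 and 1670 ± 167, a difference of 0.62 ± 0.20, the highest of any member measured on both arrays. Its other 2 probes gave 0.00 and -0.04, so the positive value stood on 1 of 3 probes. Bmp2k, a kinase named for its induction by a BMP, was at 130 ± 13.5 and 49.5 ± 6.18, a difference of -1.02 ± 0.23, or 2.03-fold lower. It was under 2-fold with median centring (-0.85), quantile normalization (-0.94) and normexp (-0.45). A second Bmp2k probe was at 64.5 on the young array and not well above background on the aged array, at least 3.49-fold lower. Of the other 2 probes with this name, neither well above background on either array, the files place 1 on chromosome 16, away from the others on chromosome 5. Tgfbrap1, an adaptor bound to TGF-beta receptors, was at 927 and 613, a difference of -0.22 ± 0.20. The brightest Bmp2k probe lies at chr5:97519810-97519869 on the forward strand of NCBI37 (mm9), and its first 30 bases are shown because 2 probes of this gene differed in size.
Bmp2k probe: aggtgcacgtgtattaatatcactacttac

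Over the members with at least 2 probes well above background on both arrays, 14 in all, the probes had the same sign for 9. The spread between probes of a gene had a median of 0.28 and reached 0.67 for Bmp1. This is more than the error of most differences, 0.20 at the median.

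**Figure D2:**
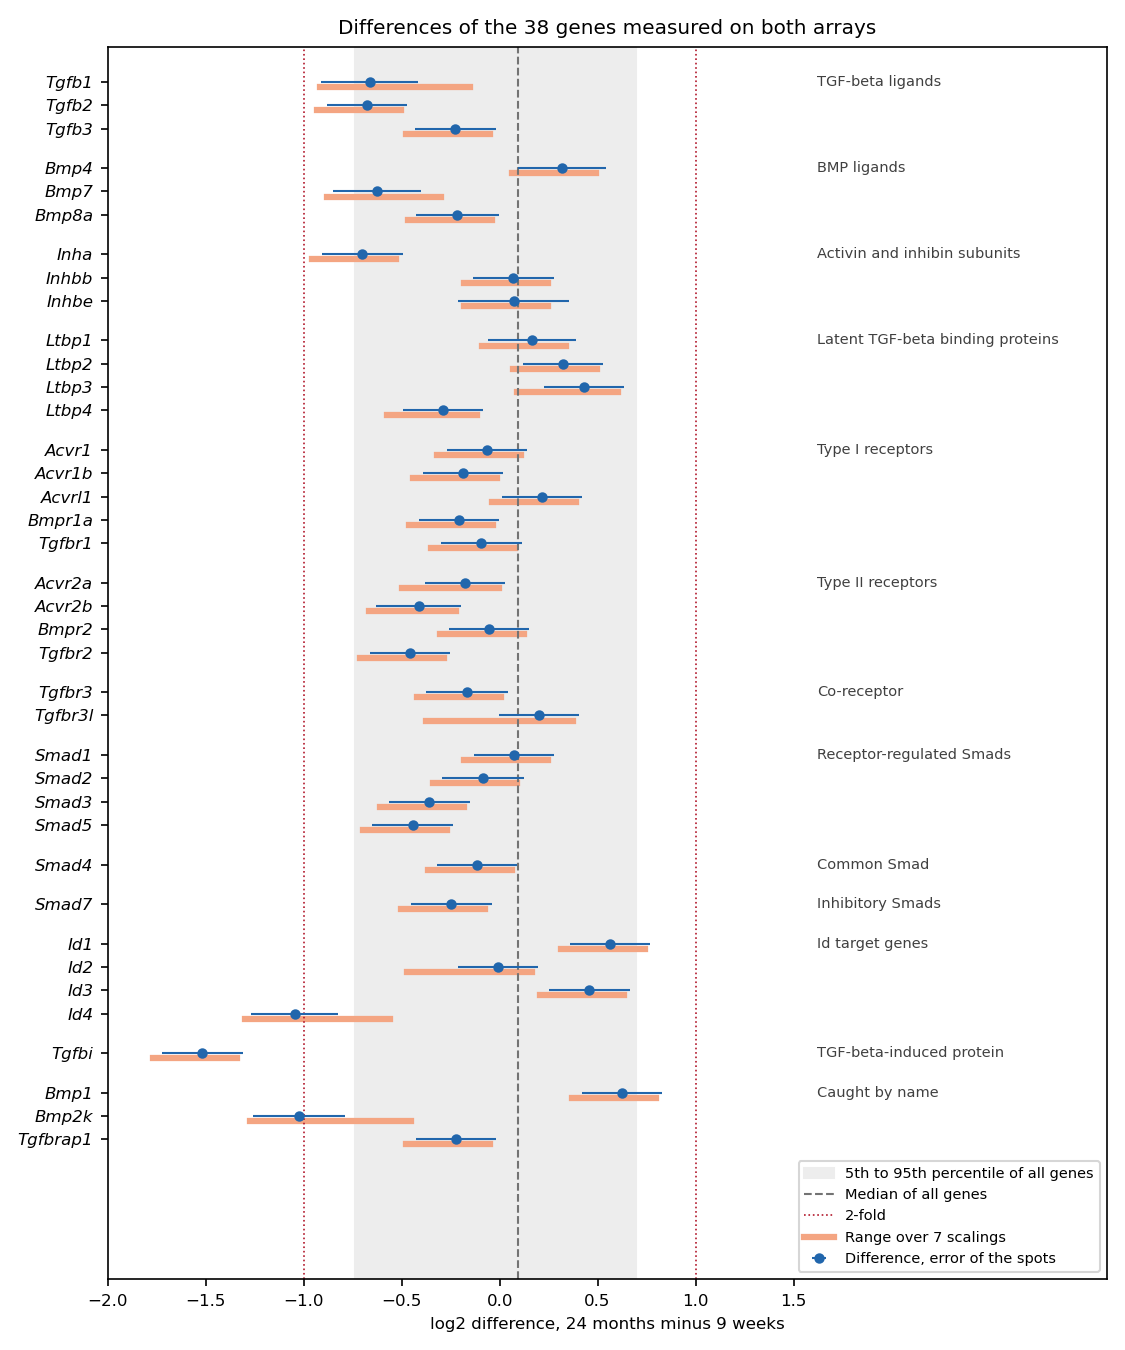
Log2 difference, 24 months minus 9 weeks, of the 38 members measured on both arrays, grouped by role. Points are the differences with the error of the spots, orange bars the range over 7 scalings, the grey band the 5th to 95th percentile of all genes (-0.74 to 0.70), the dashed line their median and dotted lines 2-fold. Tgfbi, Id4 and Bmp2k lie below the band and past 2-fold, and the orange bars of Id4 and Bmp2k reach back inside the dotted line.

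Around the members, 100 other genes of the pathway were on the array in 6 lists, and 84 were kept. By the same threshold 4 of these 84 were higher and 8 lower, beside 2.53% higher and 5.14% lower over all genes kept. The median of the 80 measured on both arrays was -0.12. Among other ligands, 9 of 15 were kept, with 2 higher and 0 lower. Gdf15, a stress-induced distant relative of TGF-beta, was at 275 and 984, a difference of 2.21 ± 0.20, or 4.62-fold higher, with a range of 1.95 to 2.38. Lefty2, a secreted antagonist of Nodal, was at 29.2 and 53.6, a difference of 1.25 ± 0.29, which was 0.99 on spike-in controls and 0.62 with normexp. Among secreted inhibitors, 10 of 17 were kept, with 1 higher and 1 lower. The proteins of both bind activins. Fstl3 was at 44.7 and 85.6, a difference of 1.31 ± 0.23 (0.78 with normexp), while Fst, follistatin, was at 40.2 on the young array and not well above background on the aged array, at least 2.18-fold lower. The limit for Fst came to under 2-fold with median centring, quantile normalization and normexp (-0.95, -0.96 and -0.21). Decorin, Dcn, a matrix proteoglycan that binds TGF-beta and is also in the fibroblast list, lay just short of 2-fold at -0.98 ± 0.20, and passed it under 5 of the 6 other scalings, down to -1.26.

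Among co-receptors and decoy receptors, 9 of 10 were kept, with 1 higher and 0 lower. This was Amhr2, which is the type II receptor for anti-Müllerian hormone, although it was placed in this list. It was at 321 and 549 with a difference of 1.14 ± 0.20. The difference was 0.89 on spike-in controls, 0.94 with normexp and 0.90 as the mean of its probes. Of the genes for storage and activation of latent ligand, 10 of 12 were kept, with 0 higher and 1 lower. This was Nrros, which anchors latent TGF-beta on microglia and other macrophages, at 999.7 and 168, a difference of -2.20 ± 0.21, or 4.59-fold lower, with a range of -2.45 to -1.83. All 23 intracellular regulators, which include ubiquitin ligases and corepressors of Smads, were kept and lay between -0.71 (Tgif2) and 0.55 (Stub1), with 0 past 2-fold. Dab2, an endocytic adaptor in this list, was at 0.22 by its brightest probe and at -1.80 by the probe brightest on the young array, so its direction is not settled.

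The 26 target genes on the array were all kept, with 0 higher and 6 lower and a median of -0.14. Over all genes kept, 2.53% were higher and 5.14% lower. Fn1, which encodes fibronectin, was at 1259 and 224, a difference of -2.12 ± 0.21, or 4.35-fold lower. The fibrillar collagen genes Col1a1, Col3a1 and Col1a2 had differences of -1.81 ± 0.27, -1.73 ± 0.22 and -1.44 ± 0.21. Together with Fn1 and Tgfbi they encode proteins of the matrix, as does Lox, a collagen crosslinking enzyme, which was at 39.6 on the young array only and at least 2.14-fold lower. Hey1, a transcriptional repressor also induced by Notch, was at 422 and 135, a difference of -1.27 ± 0.21. With normexp Col1a1 was at -0.78 and Lox at -0.18, and the limit for Lox was also under 2-fold with median centring (-0.93) and quantile normalization (-0.94). Ccn2, much used as a readout of TGF-beta, differed by 0.06 ± 0.20, and Pmepa1 and Skil, feedback regulators, by -0.11 and -0.24.

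**Figure D3:**
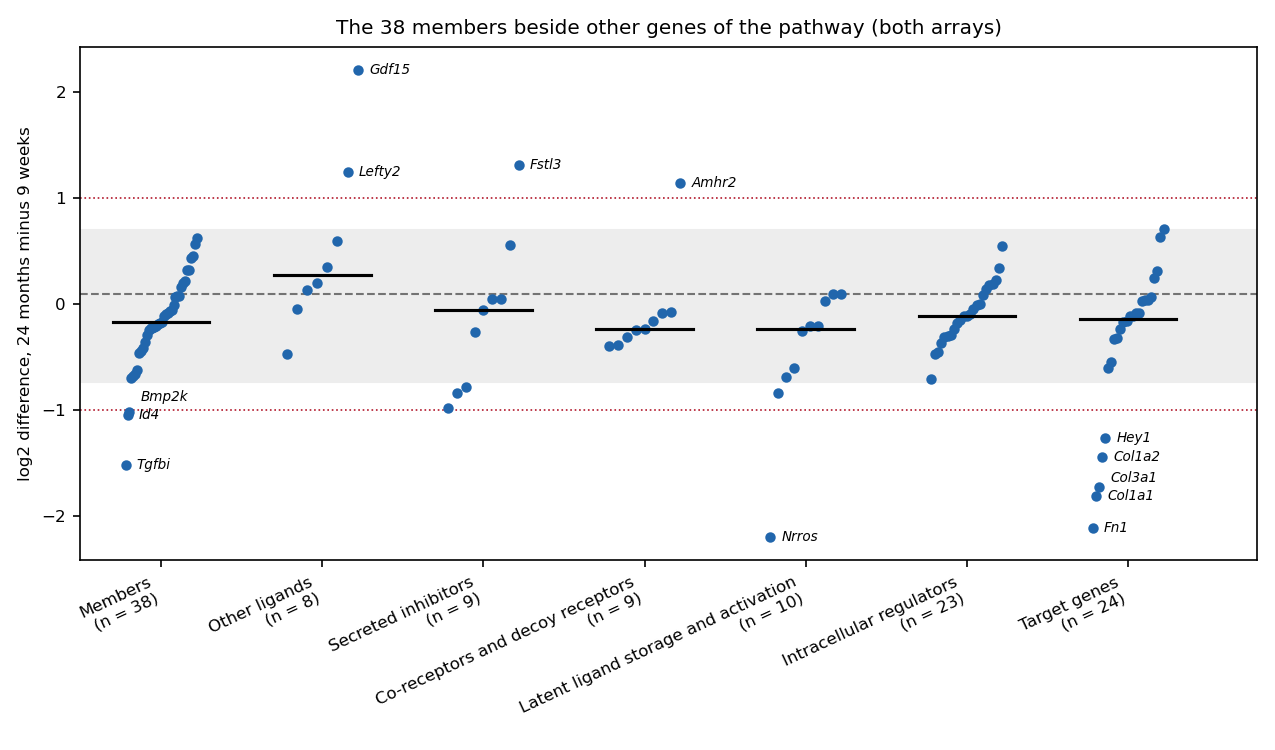
Log2 difference, 24 months minus 9 weeks, of the 38 members and of 6 lists of other pathway genes, all measured on both arrays. Each point is a gene, black lines are medians, the dashed line is the median of all genes, the grey band their 5th to 95th percentile and dotted lines mark 2-fold. Gdf15 lies highest and Nrros and Fn1 lowest, while the list of intracellular regulators stays inside 2-fold.

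The cell type label and the other cells of the sample were checked with marker genes. Epcam was at 1778 in young and 1573 in aged cells, a difference of 0.20, and all 9 epithelial markers were kept. Their summed level, relative to the 75th percentile, was 521 and 579, of which the keratins Krt8 and Krt18 made up 475 and 531 and the other 7 markers 46.2 and 48.3. The median of the epithelial list was 0.13, and it ran from -0.33 with loess to 0.30 with median centring. Of the markers of macrophages and dendritic cells, 14 of 14 were kept, and 11 were lower in aged cells by at least 2-fold. The difference was -1.91 for Lyz2 and -1.36 for Adgre1, and the median was -1.29, between -1.54 and -1.02 over the scalings. Their summed level was 209.5 in young and 109.2 in aged cells, and Csf1r, at 7302 and 3659, was well above background on both. Of the fibroblast markers, 10 of 11 were kept, with 5 lower and 1, Pi16 (1.02), higher, and Dpt was well above background on neither. Of the 9 measured on both arrays, 6 were negative and 3 positive. Their median was -0.98, between -1.26 and -0.41 over the scalings, and their summed level was 19.9 and 10.3. Col1a1, Col1a2 and Col3a1 are in this list as well as among the targets. Of the endothelial markers 12 of 12 were kept with 0 past 2-fold and a summed level of 11.4 and 7.86. Their median was -0.52 (-0.78 to -0.24 over the scalings). Of the 11 measured on both arrays, 8 were negative and 3 positive. The other lists were mixed. Of the 11 basal and myoepithelial markers, Cnn1 (-2.14) and Myh11 (-1.83) were lower by at least 2-fold, with a median of -0.08 and a summed level of 83.6 and 92.5. All 12 granular duct markers were kept, with 0 past 2-fold and a summed level of 2494 and 2353. In the main scaling 10 were negative, and of these Klk1, Klk1b3, Klk1b22 and Cftr changed sign with the scaling. The median of this list was -0.19, between -0.75 and -0.02 over the scalings. Of the 7 B and plasma cell markers kept, Cd79b (-2.14) and Jchain (-1.78) were lower, with a summed level of 5.49 and 3.16. In the acinar list Smgc was lower (-1.79) and Amy1 higher (1.23). The median of the acinar list was 0.39, but it ran from -0.43 with loess to 0.57 with median centring. The median was 0.36 for pericytes and smooth muscle and 0.31 for T and NK cells, where Cd3g was at least 2.06-fold lower.

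The medians of the macrophage, fibroblast and endothelial lists were thus negative, like Tgfbi, Id4, Bmp2k, the TGF-beta ligands, Nrros and the matrix genes. Also negative were some myoepithelial and B and plasma cell markers and, in the main scaling, most granular duct markers. The part of these cells in the differences was not tested. In cells measured in bulk, fewer cells of a type and less RNA per cell cannot be told apart.

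**Figure D4:**
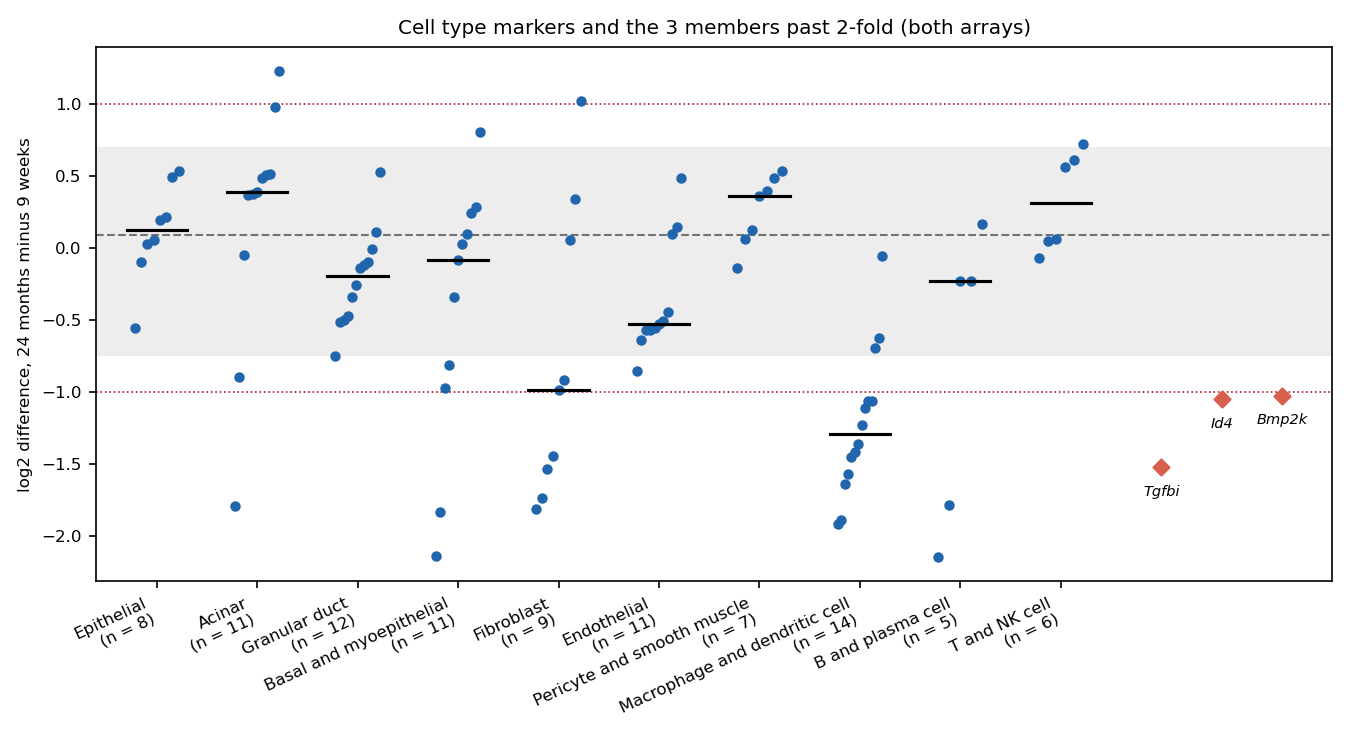
Log2 difference, 24 months minus 9 weeks, of cell type markers measured on both arrays, with the 3 members past 2-fold as diamonds. Each point is a gene, black lines are medians, the dashed line is the median of all genes, the grey band their 5th to 95th percentile and dotted lines mark 2-fold. The medians of the macrophage and dendritic cell list (-1.29) and the fibroblast list (-0.98) lie lowest, and that of the epithelial list (0.13) lies near the median of all genes in the main scaling drawn here.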

How the data were processed

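RNA of EpCAM-selected cells was labelled with Cy3 and hybridized to Agilent mouse arrays, 1 per age. The deposited scanner files (Agilent Feature Extraction 12.0.3.1) hold for each spot the intensity after background subtraction and detrending by the authors' scanner software, with its error and marks for outliers and for signal well above background. The authors' value table holds the same signal as a ratio to 1 constant per array (229 for young and 176 for aged) and served as an alternative.

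Each processed signal was divided by the 75th percentile of the 59305 non-control spots of its array, the normalization of the methods, and log2 was taken. Outlier spots (90 young, 93 aged) were left out, 0 spots were saturated, and repeated spots were averaged. Over 293 repeated probes, the log2 difference had a median standard deviation of 0.033 between spots. The number of arrays limits the precision. Where a probe was well above background on 1 array only, the fold is a lower limit, written "at least", with the dim array at its lowest signal well above background (14.1 young, 14.3 aged) or at the signal of the probe there, whichever is higher. None is given where this came out under 1-fold.

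Gene names were those of the files, with RefSeq accessions matched to a gene table on GRCm38.p6. This gave a name for 33767 of 56605 probes and for 80 of the 98 member probes, with 0 naming another gene. Probe coordinates are the files' own. All members were open to naming, as were the genes of the pathway lists past 2-fold, and markers were given by counts and summed levels, the sums of signals, each divided by the 75th percentile. Other genes named were chosen after their values were seen, as were the single markers. The members and lists were chosen with earlier results of these data known.

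As alternatives, the arrays were set level by their medians, by quantile normalization, by loess (span 0.7, 3 iterations), by spike-in controls, by normexp (offset 50) and by the 75th percentile of the probes that both arrays measured well above background. These and the main setting are the 7 scalings. Others were 2 filters on dim probes, keeping outlier spots, 2 ways of choosing the probe and the authors' table. R 4.3.3 with limma 3.58.1 and Python 3.11.15 with numpy 2.4.6, pandas 2.3.3 and matplotlib 3.10.9 were used, and the steps were tested on simulated data.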

Additional observations from a re-analysis of the deposited data

How the results depend on the processing

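The count of members at least 2-fold lower was 1, Tgfbi alone, with median centring, quantile normalization and normexp. Without a filter on dim probes it was 4, with Bmp3 added, and 1 member, Bmp5, was higher, both by values not well above background. The median of the members was 0.00 with median centring and -0.43 on spike-in controls, where that of the other pathway genes was -0.37 and that of all genes -0.16. Of the other pathway genes, 4 were higher and 8 lower. The higher count was 2 on spike-in controls and 1 with normexp, and the lower count 12 on spike-in controls (Dcn, Fstl1, Itgb6 and Sostdc1 added) and 11 by the probe brightest on the young array (Chrd, Dab2 and Fbn1 added). Over all genes, 539 were higher and 1098 lower. The counts were 350 higher on spike-in controls, 182 higher and 297 lower with normexp, 285 and 571 when only genes well above background on both arrays were taken, and 1685 and 2416 without a filter. The share of higher genes among all those past 2-fold was 32.9%, 17.8% on spike-in controls and 48.1% with median centring. For the 50 single genes followed, 80 of 598 alternative values moved by more than the error. The 15 genes past 2-fold kept their sign in all alternatives that gave a value, while 14 of the other genes changed sign in at least 1, 13 of them by a scaling and Bmpr1a by the mean of its probes (0.06). The cause of these shifts was not tested.

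No paired analysis was possible because each age had 1 array. For the same reason no array could be left out. The 11 members not well above background have no difference that can be read at this signal.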
